A study of Mus musculus with 23 samples.

Results

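The choroid plexus genes described here were Ttr, Enpp2, Kl, Clic6, Aqp1, Slc4a5, Otx2, Sostdc1, F5 and Col8a1. Every probe that the scanner files name for one of them was taken, apart from control spots. This gave 13 probes for the 10 genes, of 39429 probes with 31829 different gene names on the array. All 13 were well above the local background on all 12 arrays, and none of their spots was saturated or marked as an outlier. No value measured in these brains entered the choice of probes, although the genes themselves were listed with earlier results of these data known.

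The RNA of 12 whole brains, each from 1 adult male C57BL/6J progeny, was read on one-colour Agilent arrays, 1 per mouse. C57BL/6J embryos made by in vitro fertilization from parents on a normal diet were transferred to ICR recipient mothers, and the 3 groups of 4 progenies differ in what those mothers ate from 1 month before the transfer until delivery. The control diet (CD) held 20% casein with 0.02% folic acid, the protein-restricted diet (PR) 5% casein with the same folic acid, and the supplemented diet (FA) 5% casein with 0.1% folic acid. All progenies were delivered by cesarean section, nursed by ICR foster mothers, fed the CD after weaning, and sampled at 19 weeks of age. The comparisons ask how far the diet of the recipient mother goes along with the level of these genes in the adult brain. The study's text gives the food of the foster mothers in 2 ways, as the CD alone and as any of the 3 diets, so that effects before birth and during nursing cannot be told apart here. The labels do not give the litters, so that the p-values measure the spread between these mice only.

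The choroid plexus is a sheet of epithelium over vascular stroma that hangs in the brain ventricles and secretes most of the cerebrospinal fluid. Its epithelial cells move ions, bicarbonate and water into the ventricle, form the barrier between blood and cerebrospinal fluid, and release carrier proteins such as transthyretin. The tissue is small and can be kept or lost when a brain is taken out, so that its genes are commonly read as a sign of how much of it a brain sample holds. In RNA from a whole brain, fewer choroid plexus cells and less of a transcript per cell cannot be told apart.

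On the CD arrays 27068 to 28458 of the 43020 spots were well above background, against 31266 to 33478 on the PR arrays and 30408 to 31672 on the FA arrays. Each diet had a slide and a scan of its own, so that slide, scan and diet cannot be told apart. With 4 arrays per diet, it is their number that sets how precise the values below are. Levels are log2 of the normalized intensity that the authors deposited, and a difference of 1 on this scale is a 2-fold change. A level belongs to its own probe and is not compared between probes.

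The array reads each gene through short stretches of its transcript, and 3 of the genes have 2 such stretches, named a and b in the order of the transcript. The sequences of 4 probes are shown here, and no result was tested against what they read. Coordinates are those that the files give for mm9, and exon and UTR annotation of that build was not used here. The Enpp2 probe lies at chr15:54670921-54670980 on the minus strand and ends with the letters TAA, a stop codon, given in capitals. F5 probe a lies on the plus strand of chromosome 1, and its 60 bases are spread over 2189 bases of the genome (chr1:166139728-166141916), so that it reads across a splice junction. Slc4a5 probe a (chr6:83249444-83249503, plus strand) and probe b (chr6:83253664-83253723, plus strand) had the most unequal spreads of the 3 pairs, and their first 30 bases are given. The files name 2 Ensembl transcripts for each Slc4a5 probe, and 1 of the 3 transcripts in all is named for both.
Enpp2: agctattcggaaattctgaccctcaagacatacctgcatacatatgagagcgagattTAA
F5 probe a: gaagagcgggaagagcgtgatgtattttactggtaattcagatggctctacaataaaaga
Slc4a5 probe a: gtaaagatccccatggaaggtatcccatct
Slc4a5 probe b: ataccgaaaacatacagcttaaaatgccac

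The choroid plexus genes were present in every brain, and 12 of the 13 probes spanned less than 2-fold from the lowest to the highest brain. Ttr, which encodes transthyretin, the carrier of thyroxine and retinol-binding protein, had log2 levels of 16.14, 16.16, 16.26 and 16.15 in CD brains. Its levels were 16.28, 16.08, 16.28 and 16.17 in PR brains and 16.16, 15.94, 16.10 and 16.04 in FA brains. The highest and the lowest of the 12 brains were thus 1.27-fold apart, the 3 groups overlapped, and FA replicate 2 was the lowest. No brain lacked the transcript or stood far from the rest. Within groups, the SD of Ttr was 0.0828, and 33.9% of the 23753 probes with signal well above background on each of the 12 arrays had a smaller one. Among the 351 probes at least as bright as Enpp2, the median SD was 0.0642, below that of Ttr and that of Enpp2 (0.0692). The SD of 5 of the 13 choroid plexus probes was below the median of those probes, which was 0.103.

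Enpp2 encodes autotaxin, a secreted enzyme that makes lysophosphatidic acid, and is also known in oligodendrocytes. Its levels were 16.02, 15.89, 15.92 and 15.93 in CD brains, 16.10, 16.08, 16.10 and 16.03 in PR brains, and 16.10, 15.89, 16.03 and 15.91 in FA brains. The range over the 12 brains was 1.16-fold, the narrowest among the 13 probes. Every PR brain was above every CD brain, and the FA brains lay across both. Kl, which encodes klotho, a co-receptor for FGF23 that is also shed into the cerebrospinal fluid, had levels of 10.06, 9.82, 10.12 and 10.17 in CD brains. Its levels were 10.18, 10.18, 10.28 and 10.23 in PR brains and 10.16, 9.87, 10.16 and 10.02 in FA brains. For Kl too, the PR brains lay above all CD brains, by a small step, and above all FA brains.

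**Figure D1:**
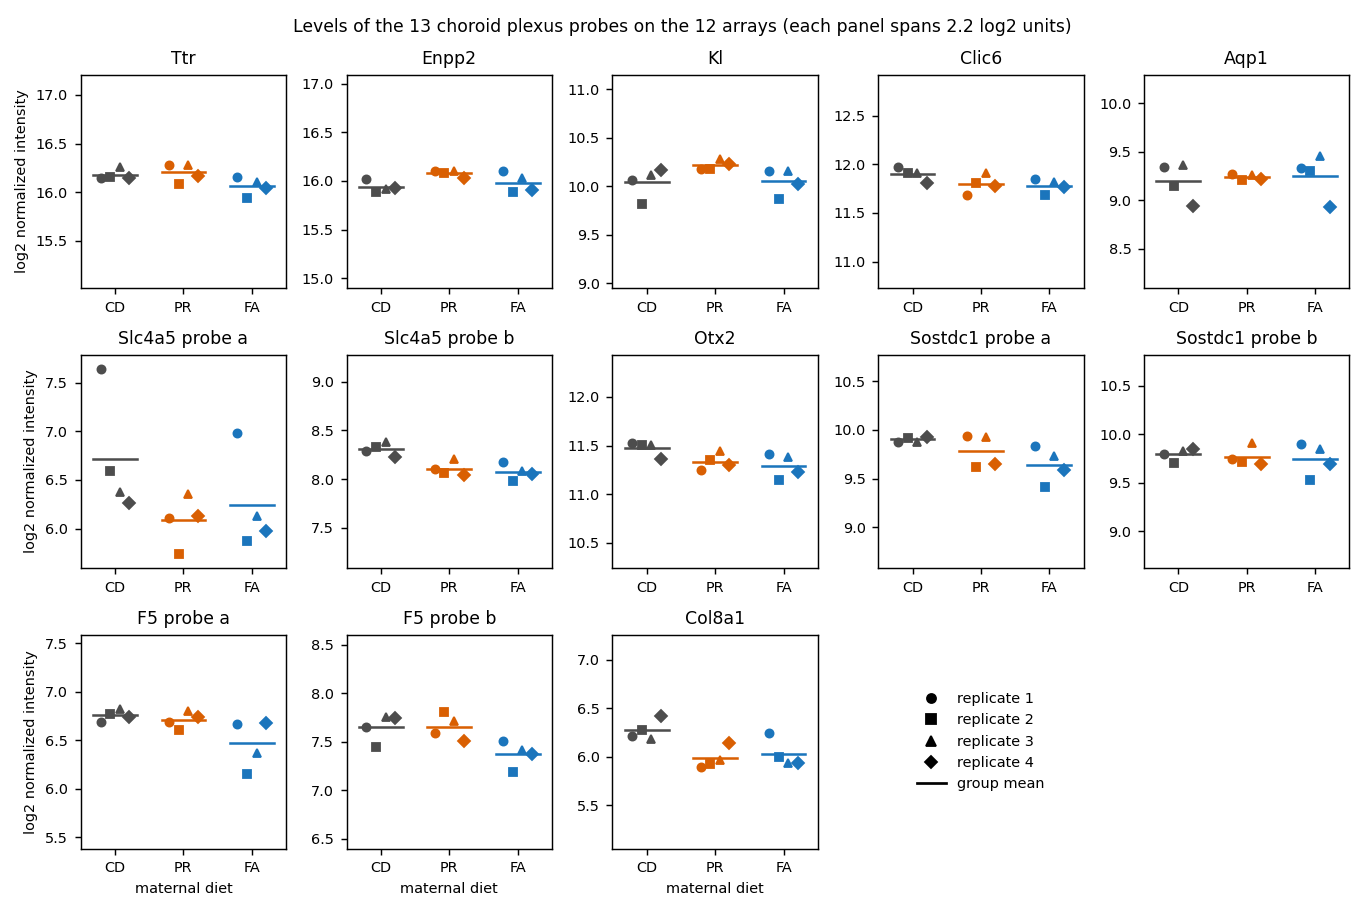
Log2 normalized intensity (vertical axis) of each choroid plexus probe in the brains of the CD, PR and FA groups (horizontal axis), 1 point per array with the replicate given by its shape and the group mean by a line. Every panel spans 2.2 log2 units, and only Slc4a5 probe a, from 5.74 to 7.64, fills most of its panel.

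Among the genes of ion and water transport, Clic6, which encodes an intracellular chloride channel protein, had levels of 11.97, 11.91, 11.91 and 11.81 in CD brains. Its levels were 11.68, 11.81, 11.91 and 11.78 in PR brains and 11.85, 11.69, 11.82 and 11.77 in FA brains. The groups overlapped, and the whole range was 1.22-fold. Aqp1, the water channel of the surface that faces the ventricle, which red blood cells carry as well, had levels of 9.34, 9.15, 9.36 and 8.94 in CD brains. The 4 PR brains lay between 9.21 and 9.27, and the FA brains had 9.33, 9.30, 9.46 and 8.93. The low values of Aqp1 were those of replicate 4 in the CD and FA groups.

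Slc4a5, a sodium bicarbonate cotransporter of the same surface, gave different pictures through its 2 probes. Slc4a5 probe a had levels of 7.64, 6.59, 6.38 and 6.26 in CD brains, 6.11, 5.74, 6.36 and 6.13 in PR brains, and 6.98, 5.87, 6.13 and 5.98 in FA brains. CD replicate 1 and FA replicate 1 stood above the other brains, the whole range was 3.73-fold, and the within-group SD of 0.49 exceeded that of 98.5% of the probes well above background. Slc4a5 probe b had levels of 8.29, 8.33, 8.38 and 8.23 in CD brains, 8.10, 8.06, 8.21 and 8.04 in PR brains, and 8.18, 7.98, 8.08 and 8.05 in FA brains. All CD brains lay above all PR and all FA brains, and CD replicate 1 was not high. Over the 12 arrays the deviations of the 2 probes from their group means were correlated with r = 0.46, and with r = 0.71 when the first replicates of the CD and FA groups were left out.

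Otx2 encodes a homeodomain transcription factor that is needed for the choroid plexus to form and is kept there in the adult. Its levels were 11.53, 11.51, 11.51 and 11.36 in CD brains, 11.25, 11.35, 11.44 and 11.30 in PR brains, and 11.41, 11.14, 11.38 and 11.23 in FA brains. The first 3 CD brains were above all PR and FA brains, while CD replicate 4 lay within them. Sostdc1, a secreted antagonist of BMP and WNT signalling, was read by 2 probes that varied alike (r = 0.80). Sostdc1 probe a lay between 9.88 and 9.93 in CD brains, at 9.94, 9.62, 9.93 and 9.65 in PR brains, and at 9.83, 9.41, 9.73 and 9.59 in FA brains. Sostdc1 probe b ranged over 9.70 to 9.85 in CD brains, 9.69 to 9.91 in PR brains and 9.53 to 9.90 in FA brains. For probe a the FA brains were all below the CD brains, which probe b did not show.

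F5 encodes coagulation factor V, and its transcript is known in the choroid plexus epithelium. F5 probe a had levels of 6.69, 6.77, 6.82 and 6.74 in CD brains, 6.69, 6.60, 6.80 and 6.74 in PR brains, and 6.67, 6.15, 6.37 and 6.68 in FA brains. F5 probe b had 7.65, 7.45, 7.75 and 7.74 in CD brains, 7.59, 7.81, 7.71 and 7.51 in PR brains, and 7.51, 7.19, 7.41 and 7.37 in FA brains. FA replicate 2 was the lowest of the 12 brains through both probes, whose deviations were correlated with r = 0.35. Col8a1, a short-chain collagen that stromal and vascular cells make as well, had 6.21, 6.28, 6.18 and 6.42 in CD brains, 5.89, 5.93, 5.97 and 6.14 in PR brains, and 6.24, 6.00, 5.94 and 5.94 in FA brains. Every PR brain was below every CD brain, and of the FA brains only replicate 1 reached the CD range.

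**Figure D2:**
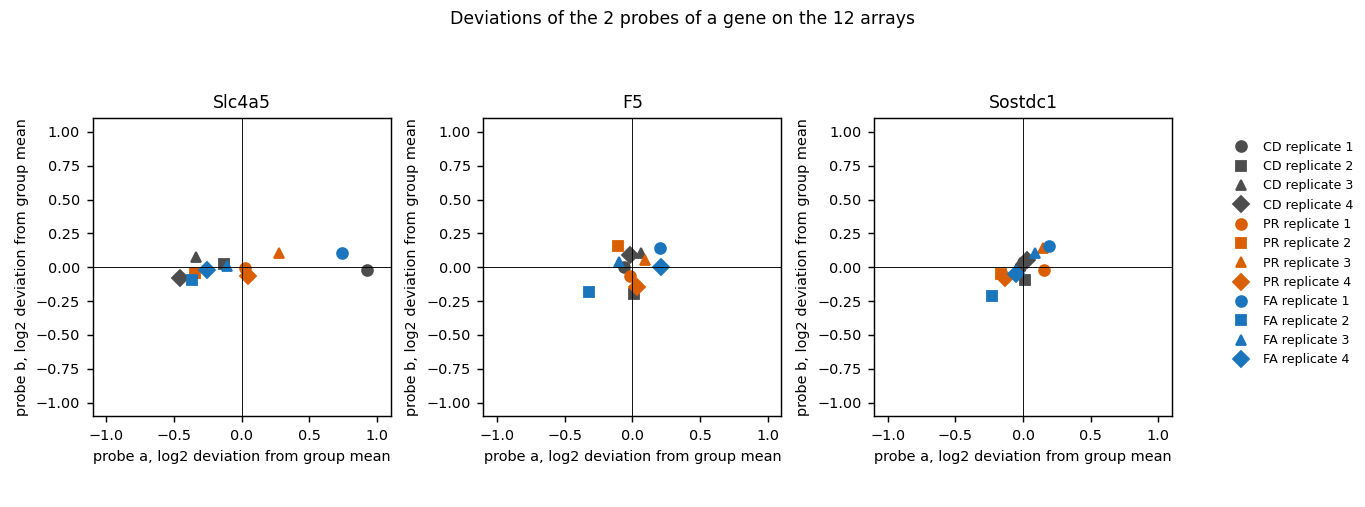
Deviation of probe b (vertical axis) against probe a (horizontal axis) from the mean of the diet group, in log2 units, for the 3 genes with 2 probes, 1 point per array. The 2 Sostdc1 probes rose and fell together (r = 0.80), whereas Slc4a5 probe a ranged widely where probe b hardly moved (r = 0.46), and the F5 probes had r = 0.35.

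Between the PR and CD groups, 2 of the 13 probes passed the test, both lower with PR. The threshold was a limma adjusted p under 0.05, and it was passed by 30% of all 39429 probes in this comparison, 16.6% lower and 13.4% higher, beside 15.4% of the choroid plexus probes. Slc4a5 probe b had means of 8.31 ± 0.07 (SD, n = 4) in CD and 8.10 ± 0.07 (SD, n = 4) in PR brains, which is 1.15-fold lower (log2 difference -0.21, standard error 0.0564, limma adjusted p = 0.0197). Slc4a5 probe a had a difference of -0.63 that did not pass (standard error 0.324, limma adjusted p = 0.169), and of -0.32 without CD replicate 1 (limma adjusted p = 0.384). Col8a1 was 1.22-fold lower with PR (log2 difference -0.29, limma adjusted p = 0.0272). The log2 difference of Ttr was 0.03, with a 95% interval from -0.11 to 0.16.

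Enpp2 and Kl lay on the other side. The difference of Enpp2 was 0.14 with an interval from 0.02 to 0.26 (limma adjusted p = 0.0758), and that of Kl was 0.17 with an interval from -0.02 to 0.36 (limma adjusted p = 0.165). These 2 were the probes whose PR values all lay above the CD values, and Slc4a5 probe b and Col8a1 the 2 whose PR values all lay below. Over the array, 33.2% of the probes had groups that did not overlap, 14.2% with PR above CD and 19% below. The median difference of the 13 probes was -0.04, against -0.02 over all probes. When the scanner signals were scaled to their 75th percentile, none of the 13 probes was called, Enpp2 had a difference of -0.02, and Slc4a5 probe b one of -0.15 (limma adjusted p = 0.0689). With the normexp background correction Enpp2 was called higher (0.15, limma adjusted p = 0.0367) and Slc4a5 probe b was not called (-0.11, limma adjusted p = 0.0836), which left 1 probe lower and 1 higher. Enpp2 was also called higher with trend and robust variances, beside 2 lower probes. The call of Slc4a5 probe b was lost as well without CD replicate 3 or PR replicate 4, with an adjusted p of at most 0.0558 there, and that of Col8a1 without CD replicate 2 or 4 or PR replicate 1, 2 or 3, with an adjusted p of at most 0.0705.

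Between the FA and CD groups, 3 of the 13 probes passed the test, all lower in the FA group. They make 23.1% of the choroid plexus probes, and the share among all probes was 34.4%, with 18% lower and 16.4% higher. Slc4a5 probe b was 1.18-fold lower in the FA group, at 8.07 ± 0.08 (SD, n = 4; log2 difference -0.23, limma adjusted p = 0.00889). F5 probe b was 1.21-fold lower, with a mean of 7.37 against 7.65 (log2 difference -0.28, limma adjusted p = 0.0395). Col8a1 was 1.18-fold lower, with a mean of 6.03 against 6.27 (log2 difference -0.24, limma adjusted p = 0.0475). F5 probe a and Sostdc1 probe a, whose FA values all lay below the CD values as did those of Slc4a5 probe b, had differences of -0.29 and -0.26 that did not pass (limma adjusted p = 0.0643 and 0.0741). Groups that did not overlap made up 36.9% of all probes, 19.7% with FA below CD and 17.1% above.

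The median difference of the 13 probes between the FA and CD groups was -0.19, against -0.01 over all probes. Of the 13, 10 were negative, beside 20044 of all 39429 probes. The 13 probes read 10 genes that tended to vary together, so they do not count separately. Ttr had a difference of -0.12 (limma adjusted p = 0.166), which became -0.26 (adjusted p = 0.0105) with scaling to the 75th percentile. Otx2 had -0.19, with an interval from -0.35 to -0.03 (limma adjusted p = 0.0634). The count of called probes depended on single brains: it was 6 without FA replicate 1, and 1 without CD replicate 1, CD replicate 3, PR replicate 3, FA replicate 2 or FA replicate 3. The call of Slc4a5 probe b held without any 1 array, with an adjusted p of at most 0.0274, but not with the normexp background correction (log2 difference -0.11, adjusted p = 0.0906). The call of F5 probe b was lost in 10 of the 21 alternatives, among them the removal of CD replicate 1, 3 or 4, PR replicate 3, or FA replicate 2, 3 or 4, with an adjusted p of up to 0.0987. That of Col8a1 was lost in 15, among them the removal of any array other than PR replicate 4 and FA replicate 1, with an adjusted p of up to 0.115.

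**Figure D3:**
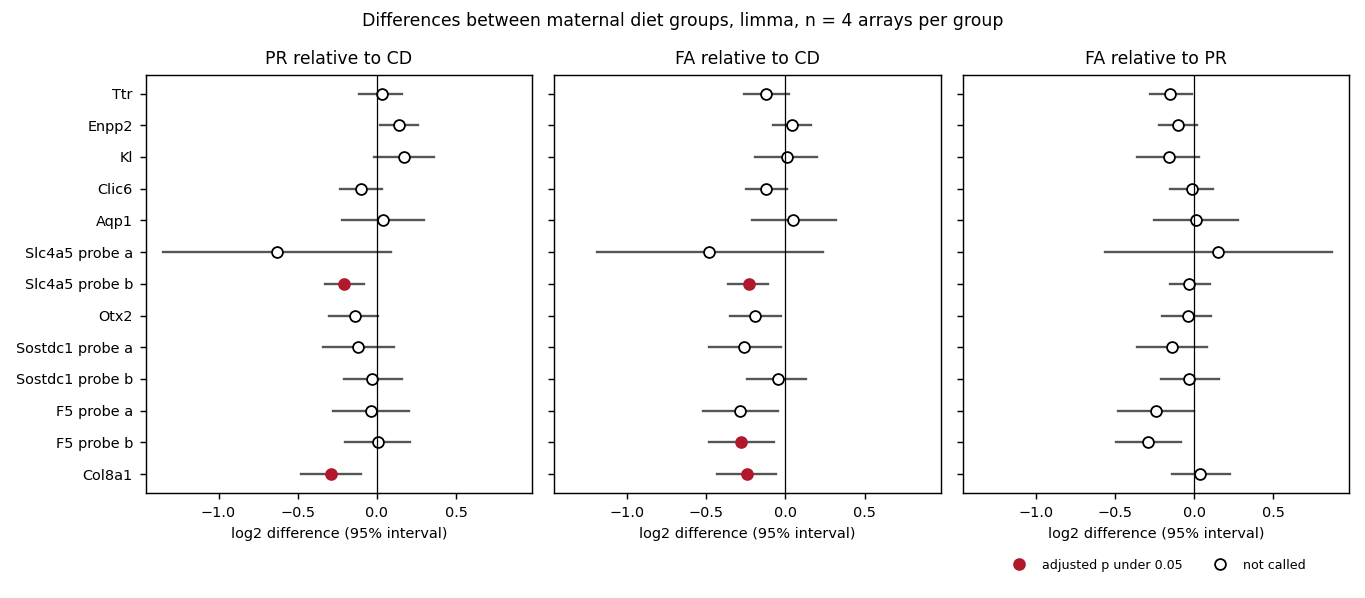
Log2 difference (horizontal axis) of each choroid plexus probe (vertical axis) between the groups named above each panel, with its 95% interval from the limma fit and n = 4 arrays per group. Filled points passed an adjusted p under 0.05: Slc4a5 probe b and Col8a1 in both comparisons with the CD group and F5 probe b in the FA group, all lower, with none between the FA and PR groups.

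Between the FA and PR groups, whose mothers differed only in folic acid, limma called none of the 13 probes, against 0.614% of all probes, 0.386% lower and 0.228% higher. An unadjusted limma p under 0.05 was found for 3, namely Ttr with a difference of -0.15, F5 probe a with -0.24 and F5 probe b with -0.29, all lower with FA. That threshold was passed by 14.1% of all probes, and the Tukey test of the study's methods called 0 of the 13 as well. Kl was the 1 probe whose FA values all lay below the PR values, with a difference of -0.16 (limma adjusted p = 0.435), where 4.94% of all probes lay below in the same way, 6.15% above, and 11.1% in either direction. The comparisons of the PR and FA groups share the CD brains, and no difference between them beyond this direct one was tested. No choroid plexus probe had a 2-fold change with a limma adjusted p under 0.0001 in any of the 3 comparisons (0.0862% of all probes for PR, 0.195% for FA and 0% between them). The study set the same limits on a Tukey p, so these shares are not its own counts, and it reported some genes past them between FA and PR. With the Tukey test the lowest adjusted p of the 13 probes was 0.0199, for Slc4a5 probe b in FA relative to CD.

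The 10 genes tended to be high or low together within a diet group. For each gene the deviations from the group means were taken over the 12 arrays, with probes of a gene averaged. The mean of the 45 pairwise correlations was 0.428, and 43 of the 45 were above 0, whereas the mean over all pairs of probes well above background was 0.00197. The points share arrays, slides and normalization, and the values are given as a description. Otx2 and Clic6 had the highest correlation (r = 0.911), followed by Ttr and Sostdc1 (0.85) and by Enpp2 with Slc4a5 and with Sostdc1 (0.77 each). Enpp2 had the highest mean correlation with the other 9 genes (0.57), and Aqp1 (0.23) and Col8a1 (0.12) the lowest. Aqp1 had the 2 negative correlations, with F5 (-0.18) and with Col8a1 (-0.22).

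**Figure D4:**
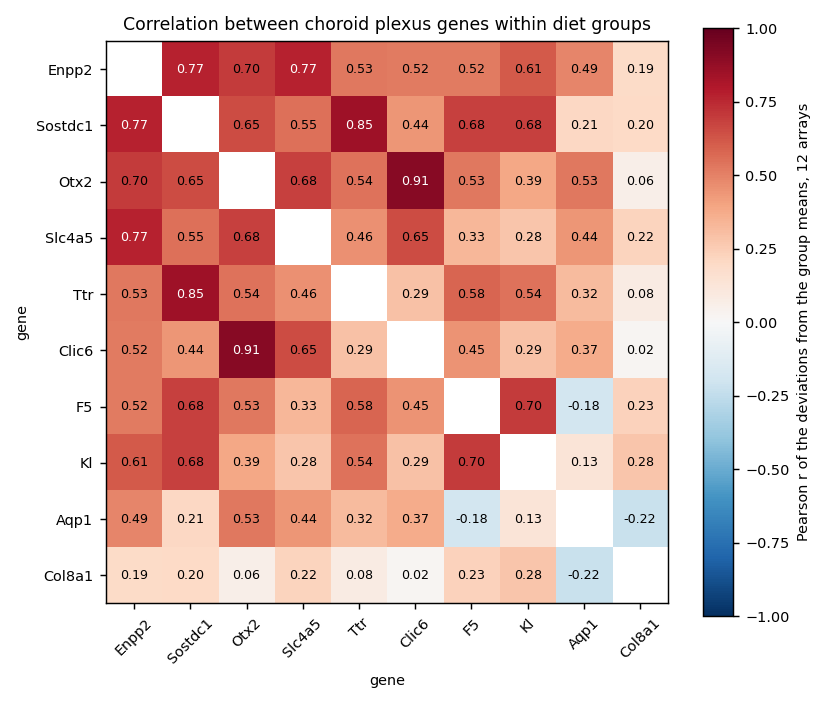
Pearson correlation of the deviations from the diet group means over the 12 arrays for each pair of the 10 choroid plexus genes (both axes), ordered by their mean correlation. Otx2 and Clic6 form the darkest cell (0.91), and Col8a1 and Aqp1 hold the palest rows.

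Much of this joint variation lay in the FA group. FA replicate 1 was the highest FA brain for 11 of the 13 probes, and FA replicate 2 the lowest for 11. FA replicate 2 was also the lowest of all 12 brains for 8 probes, although for Enpp2 it equalled CD replicate 2 at 2 decimals. Averaged over the 10 genes, the level relative to the mean of the 12 arrays was 0.13, 0.02, 0.09 and 0.02 in CD brains, -0.01, -0.05, 0.08 and -0.01 in PR brains, and 0.09, -0.20, -0.02 and -0.14 in FA brains. The highest and lowest brain differed 1.26-fold on this average, and the groups overlapped. The mean correlation was 0.259 without FA replicate 1, 0.326 without FA replicate 2, 0.182 without both, and 0.167 in the 8 CD and PR brains alone.

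Within diet groups, genes of some other cell types moved with the average of the 10 genes, and their part in it was not tested. For these correlations the group means were removed from both sides. Over the 12 arrays, the mean of the wider choroid plexus list described below had r = 0.85 (0.88 without FA replicate 1). The mean of 12 detected genes of ependymal motile cilia had r = 0.80, and that of 10 oligodendrocyte genes 0.83. That of 12 genes of leptomeninges and stroma had 0.78 (0.50 without FA replicate 1). The correlation was -0.14 for endothelial genes, -0.06 for neuron genes and 0.04 for blood genes, and the 2 pituitary hormone genes detected on all arrays had r = 0.32. The levels that follow are again relative to the mean of the 12 arrays. FA replicate 2, the lowest brain for the choroid plexus genes, was also the lowest for the wider choroid plexus list described below (-0.12), the ependymal genes (-0.25, against a range of up to 0.18), the blood genes (-0.44, up to 0.27) and the pituitary hormone genes (-0.44, up to 0.26), and it was at -0.19 for the genes of leptomeninges and stroma, next to FA replicate 4 at -0.20. The oligodendrocyte genes had means of -0.08 ± 0.02 (SD, n = 4) in CD and 0.06 ± 0.08 (SD, n = 4) in FA brains, where the choroid plexus genes had 0.07 ± 0.05 and -0.07 ± 0.13. The ependymal genes had means of 0.14 for CD, -0.09 for PR and -0.05 for FA. The endothelial genes had means of -0.17 for CD, 0.11 for PR and 0.06 for FA, with median differences of 0.32 and 0.31 over their 9 probes for PR and FA relative to CD. Of these 9, 5 were called higher in each comparison and 1 lower with FA. Of the 18 ependymal probes, 7 were called lower in each and 1 higher with FA. Of the 15 oligodendrocyte probes, 1 was called lower and 5 higher with PR, and 2 lower and 4 higher with FA. Of the 12 probes of leptomeninges and stroma, 1 was called lower and 1 higher with PR, and 4 lower and 0 higher with FA. Of the 7 pituitary hormone probes, 2 were called lower and 0 higher in each. The 11 neuron probes had 2 lower and 1 higher with PR and 1 of each with FA, and the 4 blood probes had 0 calls. Among all probes, 16.6% were called lower and 13.4% higher with PR, and 18% lower and 16.4% higher with FA. Of the neuron and oligodendrocyte probes that check the tissue, all 11 and all 15 were well above background on every array.

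**Figure D5:**
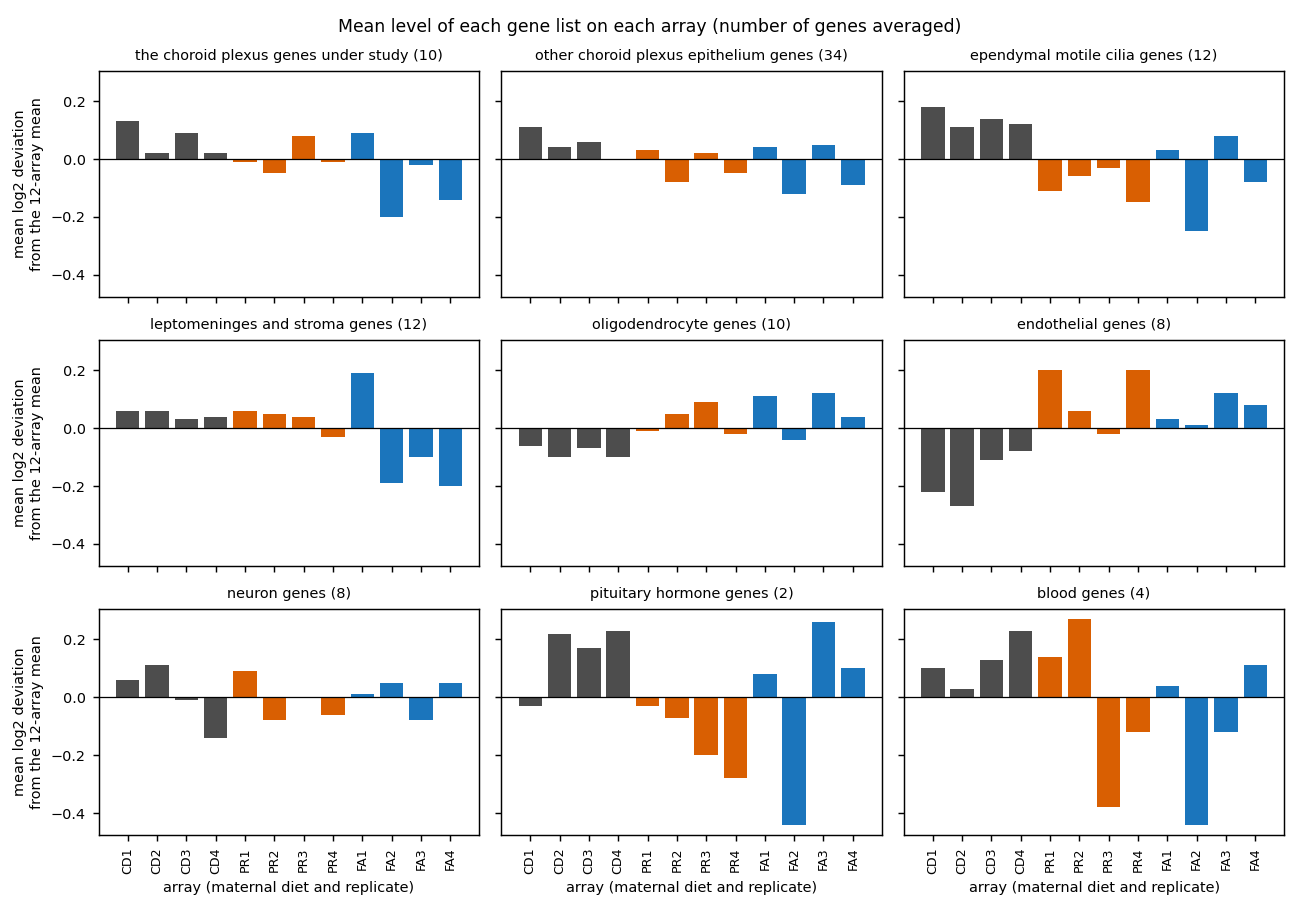
Mean log2 deviation from the 12-array mean (vertical axis) of each gene list on each array (horizontal axis, bars from 0), with the number of genes averaged in brackets. The choroid plexus genes stayed between -0.20 and 0.13, and FA replicate 2 was low in both choroid plexus lists and in those of ependymal, leptomeninges and stroma, pituitary hormone and blood genes.

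A further 35 genes of the choroid plexus epithelium were read by 51 probes, of which 48 were well above background on all 12 arrays and 1 on none. Each of these 48 was correlated with the average of the 10 genes, both as deviations from the group means. For 23 (47.9%) the correlation was above 0.5, against 7.44% of all probes well above background, and the median was 0.49 against 0. Calml4, a calmodulin-like protein, had the highest (0.88), and Car12, a membrane carbonic anhydrase, the lowest (-0.46). The share above 0.5 was 52.1% without FA replicate 1, beside 9.54% of all probes, and 35.4% without FA replicate 2, beside 5.82%. In the CD and PR brains alone it was 29.2%, beside 11.4% of all probes. With PR relative to CD, 13 of the 51 probes were called lower and 5 higher, which is 35.3% of the list beside 30% of all probes (16.6% lower and 13.4% higher). With FA relative to CD, 11 were called lower and 0 higher, which is 21.6% beside 34.4% of all probes (18% lower and 16.4% higher). Between the FA and PR groups limma called 0, and 6 of the 51 had an unadjusted p under 0.05, beside 14.1% of all probes. The medians over the 51 probes were -0.09, -0.09 and -0.02 in turn.

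The probes of one gene differed in the size of their differences in this wider list. Htr2c, the serotonin receptor that is abundant in choroid plexus and is also found in neurons, had 1 probe with more than a 2-fold difference, at 8.18, 6.45, 6.28 and 5.66 in CD brains, 5.17, 5.26, 5.25 and 4.74 in PR brains, and 5.48, 5.51, 5.38 and 5.65 in FA brains. All CD brains were above all PR brains, and CD replicate 1 was far above the rest, as it was for Slc4a5 probe a. The PR difference was -1.54 (limma adjusted p = 0.0201), and it was -1.02 without CD replicate 1 (adjusted p = 0.00438). It did not pass when PR replicate 4 was left out, with the Tukey test or with only the 2 groups compared, and it was -0.72, less than 2-fold, with the normexp background correction. The FA difference of this probe was -1.14 (limma adjusted p = 0.0603) and -0.63 without CD replicate 1 (adjusted p = 0.0331). The other two Htr2c probes had PR differences of -0.54 (limma adjusted p = 0.00309) and -0.14 (limma adjusted p = 0.0989). Their FA differences were -0.47 (limma adjusted p = 0.00572) and -0.09 (limma adjusted p = 0.3) in turn.

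Kcnq1, a potassium channel subunit, had the largest within-group spread of this list after Htr2c (SD 0.398), with PR replicate 1 at 6.93 and CD replicate 2 at 5.28 as the extremes. Lbp, the lipopolysaccharide-binding protein, was at 9.78 in CD replicate 2 and between 8.65 and 9.08 in the other 11 brains. For Abca4, a retinoid transporter, 1 of 2 probes was called lower, with a log2 difference of -0.63 for PR (limma adjusted p = 0.0222) and -0.57 for FA (limma adjusted p = 0.0309). The other Abca4 probe had -0.17 and -0.26 (limma adjusted p = 0.472 and 0.268). Neither call held with scaling to the 75th percentile or with the Tukey test, and the PR call was lost without PR replicate 1, 2 or 4, the FA call without FA replicate 1, 2 or 4 or with only the 2 groups compared. The steadiest probes were one of Cab39l, a scaffold protein of the kinase LKB1, with an SD of 0.0581 and levels of 10.04 to 10.27, and one of Spint2, a membrane protease inhibitor, with an SD of 0.0637. This Spint2 probe was lower with PR (-0.21, limma adjusted p = 0.0104) and with FA (-0.17, limma adjusted p = 0.0254), while the other had -0.13 and -0.26 without a call (limma adjusted p = 0.477 and 0.135). The FA call was lost without CD replicate 1 (adjusted p = 0.0532) or 4, without FA replicate 2 or 4, and with the normexp background correction.

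The genes outside the 10 whose deviations were most like their average were sought among 3177 probes with a within-group SD of at least 0.2. The 10 most alike were H2-Aa (r = 0.931), Lhx3 (0.905), 2310043J07Rik (0.903), Pdgfd (0.883), A730046J19Rik (0.877), Mfap5 (0.871), Slc39a4 (0.868), A330062J17Rik (0.855), Gch1 (0.849) and Actn3 (0.834), over 12 arrays. None of them belongs to the wider choroid plexus list, but the SD limit left most detected probes of that list out of the search. Calml4 (r = 0.88, SD 0.0987) was among those left out, so the absence says little about that list. H2-Aa, a chain of MHC class II, was at 7.39, 7.08, 7.23 and 7.14 in CD brains, 7.10, 7.01, 7.13 and 6.90 in PR brains, and 7.76, 6.85, 7.24 and 7.03 in FA brains. Lhx3, a transcription factor of the pituitary and of motor neurons, was at 7.90 in FA replicate 1 and at 6.86 in FA replicate 2, with the other 10 brains between 7.17 and 7.62. The first 2 FA replicates were the highest and lowest brains for both genes. Without FA replicate 1 the 10 correlations ran from 0.64 to 0.89, and in the CD and PR brains alone from 0.21 (Actn3) to 0.84 (2310043J07Rik).

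Because these genes moved together and Otx2 encodes a transcription factor among them, the promoters were searched for TAATCC, a core motif of OTX-type homeodomains, on both strands, where the other strand reads GGATTA. RefSeq promoter windows of GRCm38.p6, with 250 bases before and 50 after a transcript start, were given for 6 of the 10 genes, in 9 windows. Of these windows, 4 were of Otx2. No window was given for Ttr, Clic6, Enpp2 and Sostdc1, so the search did not reach Clic6, the gene most correlated with Otx2 (r = 0.91). The motif was in 1 of the 9, a window of Otx2 itself, and in 7.06% of all 32851 windows of this length. The 250 bases before that start lie on the minus strand at chr14:48665110-48665359, and the motif, in capitals, begins 211 bases before the start. The windows of Kl, Aqp1, Slc4a5, F5 and Col8a1 and the other three windows of Otx2 do not hold these letters.
Otx2 promoter: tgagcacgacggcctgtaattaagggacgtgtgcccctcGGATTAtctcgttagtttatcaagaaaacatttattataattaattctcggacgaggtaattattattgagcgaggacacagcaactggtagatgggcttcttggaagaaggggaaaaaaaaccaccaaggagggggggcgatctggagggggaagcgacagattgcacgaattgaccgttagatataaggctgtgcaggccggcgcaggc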

How the data were processed

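RNA from 12 whole brains was hybridized by the authors to Agilent arrays, and the spots were quantified with Agilent Feature Extraction 11.0.1.1 (probes placed on mm9). Per the file headers, each spot intensity was corrected for background within its array. The authors deposited these intensities and a series of qspline-normalized ones, a linear value per probe, which was used here after log2 without a pseudocount. Applied anew, the qspline function (100 quantiles, 5 iterations) came within a median of 0.000976 of those values on the log2 scale. The methylation samples of the series were not analysed here.

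Arrays were grouped by their diet labels. A single limma model (version 3.58.1, R 4.3.3) held all 3 groups and was tested two-sided, with Benjamini-Hochberg adjustment over all 39429 probes. Files were read with the data.table package (version 1.17.8), and figures were drawn with Python 3.11.15, numpy 2.4.6 and matplotlib 3.10.9. Background calls were those of the scanner software, and of repeated spots 50% had to be well above it. On simulated arrays with known changes the test was checked. The genes and lists were chosen with earlier results of these data known. Every probe of the 10 genes is named. From the wider choroid plexus list, the 4 genes with the largest and the 2 with the smallest within-group SD and any called probe with at least a 2-fold change are named, and Calml4 and Car12 were named after their values were seen. Outside the 10 genes, the 10 most like their average are named, among detected probes with a within-group SD of at least 0.2.

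The alternatives were scanner signals scaled to the 75th percentile, quantile-normalized or qspline-normalized, each without outlier spots, a normexp background correction (offset 50), removal of dim probes, limma with trend and robust variances, only the 2 groups compared, the replicate number as a block, the Tukey test of the methods, and each array left out. Correlations in the CD and PR arrays alone and without FA replicates 1 and 2 were added after the data were seen.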

Additional observations from a re-analysis of the deposited data

Results flagged for a closer look

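Otx2 in CD replicate 4 was at 11.36, away from the other CD brains, of which the nearest was at 11.51, and this gap took a share of 0.896 of the group's range. For 2310043J07Rik, PR replicate 3 was at 5.90 with the next brain at 5.36, a share of 0.896. For Mfap5, PR replicate 3 was at 7.78 with the next brain at 7.30, a share of 0.867. These were the 3 single brains far from the others of their group among 114 groups of 4 examined, where chance marks about 1 in 20, or 5.7.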

How the results depend on the processing

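Of 819 values of single choroid plexus probes under the alternatives, 773 kept their side of the threshold, 37 lost a call, 9 gained one, and 0 turned a called direction. Most of these values belong to probes without a call, which had none to lose. Of 21 alternatives each, the call of Slc4a5 probe b was lost in 4 for PR and 1 for FA relative to CD. That of Col8a1 was lost in 7 for PR and 15 for FA, and that of F5 probe b in 10 for FA. For PR relative to CD, 2 probes were called, 0 with scaling to the 75th percentile, 1 with the Tukey test, and 1 to 2 with any 1 array left out. For FA relative to CD, 3 were called, and 1 with only the 2 groups compared, with the Tukey test, and with the replicate number as a block, and 1 to 6 with 1 array left out. Between FA and PR the count was 0 under all 21 alternatives. With 1 array left out, the median differences ran from -0.07 to -0.02 for PR relative to CD, from -0.23 to -0.14 for FA relative to CD, and from -0.09 to 0 between FA and PR. They moved by less than the spread between replicates under the other normalizations and the normexp background correction. The remaining alternatives leave the group means of these probes as they are, so they could not move the medians. The mean correlation between the genes ran from 0.259 (without FA replicate 1) to 0.492 with 1 array left out, and was 0.167 in the CD and PR arrays alone. The cause of these shifts was not tested. The labels give no pairing by replicate number, and same-numbered arrays of different groups were correlated in their deviations between -0.063 and 0.196. Between FA and PR, 3 of 4 FA arrays were most alike with the PR array of their own number, against 1 of 4 in each comparison with CD. The median net signal of negative control spots rose with the number in every group, from 28.3 to 34.9 (CD), 42.3 to 51.4 (PR) and 38.9 to 47.9 (FA). Whether the number follows a shared technical order was not tested. The mean correlation was 0.291 with the block. Over all probes, the share called between FA and PR ran from 0.0203% (Tukey test) to 2.02% (dim probes removed), against 0.614%, and the block gave 0.0279%. Of the calls between FA and PR, 152 were lower and 90 higher, or 115 and 23 with scaling to the 75th percentile. With normexp, 3607 were lower and 4746 higher for PR relative to CD, against 6532 and 5288, and 4861 and 6332 for FA relative to CD, against 7109 and 6449. The 4 arrays of a group limit which small differences can be called.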
